A study of Mus musculus with 5 samples.

Results

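The products of 10 genes of the pancreatic islet were followed through RNA-seq libraries of mouse acinar cell preparations: the insulins Ins1 and Ins2, the beta cell peptide Iapp, the alpha cell products Gcg and Ttr, the delta cell hormone Sst, the PP cell hormones Ppy and Pyy, and the granins Chga and Chgb. They were taken by gene symbol, and all 10 were found among the 23284 symbols of each count table. The control group held 2 libraries from p48-Cre mice, and the knockout group 3 libraries from Arid1afl/fl;p48-Cre mice. Every animal was C57BL/6 and 8 weeks old, and both groups carried the p48-Cre allele, so neither is free of Cre. In the knockout, Cre made from the p48 (Ptf1a) locus acts on a floxed Arid1a, which encodes a subunit of the SWI/SNF chromatin remodeller. That locus is already active in progenitors of the embryonic pancreas, so recombination is not limited to acinar cells and can also reach part of the endocrine lineage. Cells were obtained by digestion and straining of the whole organ and kept for a short recovery in serum, and the labels name no sort. Nothing in the labels ties a library to an animal of its own, so any p-value below reflects the spread between libraries alone, and that spread may be technical.

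Islets are clusters of endocrine cells embedded in the acinar tissue, and each endocrine type makes 1 dominant hormone. Beta cells make insulin and amylin, alpha cells glucagon, delta cells somatostatin, and PP cells pancreatic polypeptide. The hormones are stored in dense-core granules together with granins, acidic proteins that help to form the granule. Acinar cells store digestive enzymes in zymogen granules and are not known to make these hormones. In bulk RNA, fewer cells of a type and less RNA per cell cannot be told apart.

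Depth separated the libraries as genotype did. The ribosomal precursor Rn45s made up 72.6% and 82.2% of all counts in controls and 6.78% to 10.9% in knockouts. Without Rn45s and Lars2, 67514 and 72006 counts were left in the controls and 3155357 to 3568906 in the knockouts. Levels are given as CPM, the usual scaling of counts to a fixed library total, with that remainder as the total. A single count was worth 14.8 and 13.9 CPM in the controls and 0.28 to 0.317 CPM in the knockouts. Taking 3 counts as the limit of detection gives 44.4 and 41.7 CPM in the single controls, 21.5 CPM over both together and at most 0.951 CPM in a knockout. Genes of acinar digestive enzymes and zymogen granule proteins gave 66.6% and 70.7% of the remainder in the controls against 79.7%, 68.4% and 87.7% in knockouts 1, 2 and 3, the bulk of every library. The 10 islet genes together gave 0.0104% and 0.0708% in the controls, with 0.0219%, 0.112% and 0.0289% in knockouts 1, 2 and 3. Across the 8291 tested genes, log2(CPM + 10) correlated at r = 0.367 between the 2 controls, at 0.373 to 0.458 between a control and a knockout and at 0.815 to 0.945 between knockouts (genes are not independent replicates). The controls were thus no closer to each other than to the knockouts. Genotype and depth cannot be told apart in a comparison of the groups. Counts of Arid1a itself were 0 and 3 in controls, and 44, 121 and 42 in knockouts 1, 2 and 3 (0 and 41.7 CPM against 13.9, 33.9 and 12.6 CPM), too few in the controls to check the genotype labels, and counts per gene do not show whether the floxed part was lost.

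Mice carry 2 insulin genes whose coding sequences are close copies, which bears on every insulin count below. They are shown to mark where a read can tell the genes apart, 5′ to 3′ from the start codon to the last base that differs (bases 1 to 270 of Ins1 and 1 to 276 of Ins2), from the GENCODE M21 transcripts. Capitals mark bases that differ or have no counterpart.
Ins1: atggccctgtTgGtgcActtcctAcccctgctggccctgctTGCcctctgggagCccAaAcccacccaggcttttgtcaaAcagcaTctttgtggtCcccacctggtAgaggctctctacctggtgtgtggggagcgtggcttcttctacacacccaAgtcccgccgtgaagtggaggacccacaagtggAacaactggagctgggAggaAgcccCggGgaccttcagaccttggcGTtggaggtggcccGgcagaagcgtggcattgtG
Ins2: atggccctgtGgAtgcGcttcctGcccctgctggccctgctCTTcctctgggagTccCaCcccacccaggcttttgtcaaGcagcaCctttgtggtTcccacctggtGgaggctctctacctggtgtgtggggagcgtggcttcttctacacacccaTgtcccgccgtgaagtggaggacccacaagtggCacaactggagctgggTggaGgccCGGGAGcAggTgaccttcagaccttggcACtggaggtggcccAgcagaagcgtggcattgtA
Over the whole coding sequence without the stop codon, the genes were identical at 300 of 330 aligned columns (90.9%), with 24 mismatches and 6 columns without a counterpart. The longest identical stretch was the last 54 bases, which are not shown. Of the 50-base words in the annotated transcripts, 0.691% of those of Ins1 and 0.465% of those of Ins2 occurred in the other gene as well. Among the other 8 genes, Chga shared 0.074% of its words with other genes and the rest shared none. Ins1 and Ins2 counts are therefore largely separable at that read length, although neither the read length nor the handling of multiply matching reads is known here.

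Promoter sequence was at hand for 8 of the 10 genes in a RefSeq table of build GRCm38.p6, 250 bases before to 50 after the transcript start. The promoters of a beta, an alpha and a delta cell hormone are printed because the 3 hormones, which come from different cells, are compared throughout. Capitals mark TAAT, the core of homeodomain sites, read on either strand, in Ins1 and Gcg, and TGACGTCA, the cAMP response element, in Sst.
Ins1 (chr19:52264047-52264346, plus strand): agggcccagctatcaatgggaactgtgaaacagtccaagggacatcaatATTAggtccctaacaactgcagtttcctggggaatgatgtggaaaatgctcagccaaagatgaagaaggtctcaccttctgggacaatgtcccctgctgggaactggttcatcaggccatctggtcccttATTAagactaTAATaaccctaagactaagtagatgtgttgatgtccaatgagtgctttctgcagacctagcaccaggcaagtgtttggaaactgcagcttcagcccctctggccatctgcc
Gcg (chr2:62483604-62483903, minus strand): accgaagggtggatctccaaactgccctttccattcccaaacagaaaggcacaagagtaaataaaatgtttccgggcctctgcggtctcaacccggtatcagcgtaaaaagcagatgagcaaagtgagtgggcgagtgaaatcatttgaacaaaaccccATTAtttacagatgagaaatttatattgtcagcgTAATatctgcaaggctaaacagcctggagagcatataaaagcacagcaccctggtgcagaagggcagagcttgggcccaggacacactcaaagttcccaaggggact
Sst (chr16:23890795-23891094, minus strand): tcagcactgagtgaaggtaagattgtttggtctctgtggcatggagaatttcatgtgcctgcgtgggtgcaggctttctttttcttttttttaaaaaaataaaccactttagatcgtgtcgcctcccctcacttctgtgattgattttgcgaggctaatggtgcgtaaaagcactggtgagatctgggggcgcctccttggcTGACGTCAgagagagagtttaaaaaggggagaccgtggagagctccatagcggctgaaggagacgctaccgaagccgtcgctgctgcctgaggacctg
TAAT was found 3 times in the Ins1 window, 2 times in that of Gcg and 1 time in that of Sst, where it is not marked. It occurred at least once in 58% of all 32851 promoter windows of this length. TGACGTCA, which reads the same on both strands, occurred once in the windows of Sst and Chgb and in none of the other 6, against 1.79% of all windows. These are matches of letters and not measured binding.

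Insulin was the islet RNA found in every library. Ins2, the main murine insulin gene, stood at 74.1 and 514 CPM in controls 1 and 2 (5 and 37 counts) and at 36.1, 336 and 159 CPM in knockouts 1, 2 and 3 (114, 1199 and 531 counts). Control 2 was the highest library and knockout 1 the lowest, and the groups overlapped. The exact 95% Poisson interval of control 2, 362 to 708 CPM, lay above that of knockout 2, 317 to 356 CPM, whereas that of control 1, 24 to 173 CPM, was wide enough to hold knockouts 1 and 3. Ins1, the insulin gene that arose as a retroposed copy, had 29.6 and 167 CPM in the controls against 6.66, 110 and 26 CPM in the knockouts. Its order over the libraries was nearly that of Ins2, with control 2 highest and knockout 1 lowest. Ins1 gave 0.324 counts for each Ins2 count in control 2, 0.184 in knockout 1, 0.327 in knockout 2 and 0.164 in knockout 3. The exact 95% intervals of knockout 2 (0.291 to 0.367) and knockout 3 (0.129 to 0.206) did not meet. Iapp, amylin, which beta cells secrete along with insulin, had no count in either control and 5.7, 95.8 and 3.59 CPM in the knockouts. Knockout 2 held nearly all of it, 342 of 372 counts.

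**Figure D1:**
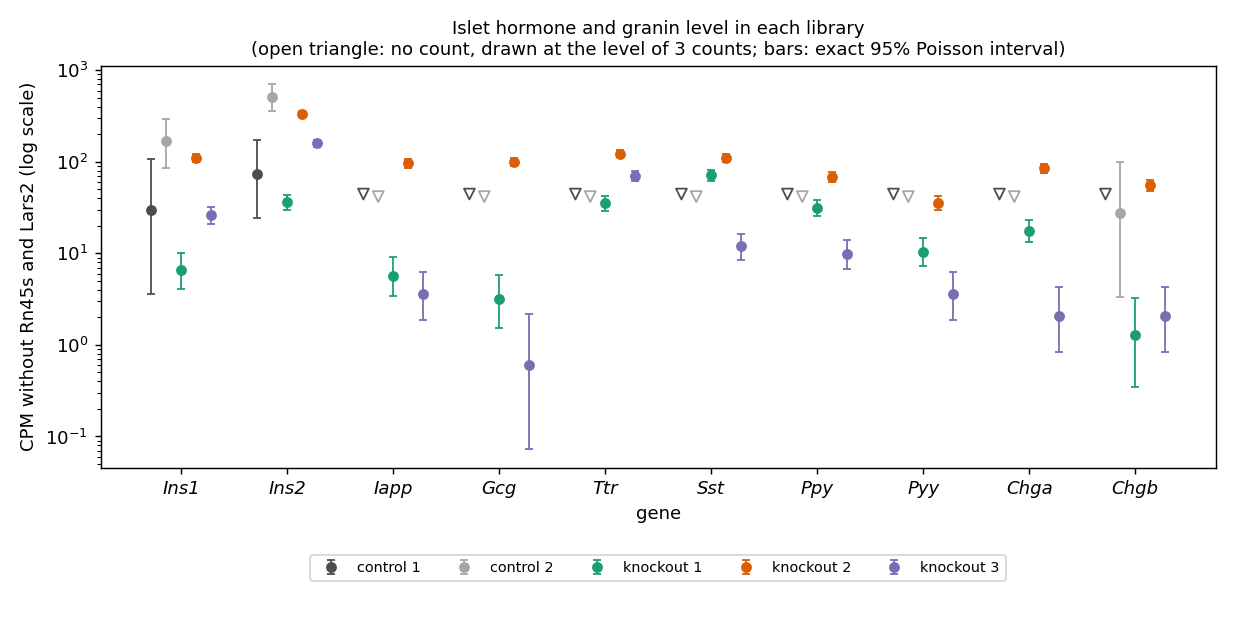
Level of each islet gene in the 5 libraries, in CPM without Rn45s and Lars2 on a log axis; filled points are libraries with a count, bars their exact 95% Poisson interval, and open triangles libraries with no count, drawn at 3 counts. Ins1 and Ins2 have points for both controls, with control 2 the highest library, while the other genes have none in control 1 and only Chgb has a point in control 2.

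The alpha cell products Gcg and Ttr were counted in the knockouts only. Gcg, which encodes the precursor of glucagon, had no control count and 3.17, 100 and 0.598 CPM in knockouts 1, 2 and 3 (10, 358 and 2 counts). It was the most uneven of the 10 genes, with knockout 2 at 31.7 times knockout 1 and 168 times knockout 3. Ttr, transthyretin, a thyroxine carrier that is abundant in alpha cells and also made by liver, had no control count and 35.2, 123 and 70.6 CPM in the knockouts. Ttr was present in all 3 knockouts and spanned a much narrower range. Gcg gave 0.0901, 0.815 and 0.00847 counts per Ttr count in knockouts 1, 2 and 3, so Ttr did not follow Gcg. Other secreted proteins of hepatocytes were mostly low, with Ahsg in knockout 2 as an exception. Alb, albumin, had 0.951, 2.52 and 2.09 CPM in the knockouts, Apoh and Fgb had no count in any library, and 5 of 8 such genes had a knockout count. Their summed level was 118 and 27.8 CPM in controls (8 and 2 counts) and 23.1, 82.9 and 17.9 CPM in knockouts. Most of the sum in knockouts 1 and 2 was Ahsg, fetuin-A, at 18.1, 75.1 and 0.598 CPM. In knockout 3 most of it was Apoa1, at 0.317, 0.841 and 12.3 CPM in knockouts 1, 2 and 3. The part of other Ttr-producing cells in the Ttr level was not tested.

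Somatostatin and the PP cell hormones were also counted in the knockouts only. Sst, the delta cell hormone that restrains the release of insulin and glucagon, had no control count and 71, 109 and 12 CPM in the knockouts (224, 390 and 40 counts). Ppy, pancreatic polypeptide, had no control count and 31.4, 68.9 and 9.87 CPM. Pyy, peptide YY, a relative of Ppy found in islets and in gut endocrine cells, had no control count and 10.5, 35.9 and 3.59 CPM. For these 3 genes, as for Iapp, Gcg and Chga, knockout 2 was highest, knockout 1 next and knockout 3 lowest, whereas for Ins1, Ins2, Ttr and Chgb knockout 3 stood above knockout 1. Ppy gave 0.442, 0.631 and 0.825 counts per Sst count and Pyy gave 0.333, 0.52 and 0.364 per Ppy count in knockouts 1, 2 and 3. Other genes of gut endocrine cells were low. Of Cck, Gip, Sct, Nts, Tph1 and Gast, 3 had no count in any library. All 6 together had 7, 20 and 0 counts in the knockouts, of which Nts gave 5, 17 and 0.

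The granins were counted almost only in knockouts, and there mostly in knockout 2. Chga, chromogranin A, had no control count and 17.7, 84.9 and 2.09 CPM in the knockouts (56, 303 and 7 counts). Chgb, chromogranin B, had 0 and 2 control counts, the latter worth 27.8 CPM, and 1.27, 55.5 and 2.09 CPM in the knockouts (4, 198 and 7 counts). Knockout 2 was far above the other knockouts for both. Chgb gave 0.0714 counts per Chga count in knockout 1 and 0.653 in knockout 2, with exact 95% intervals of 0.0188 to 0.193 and 0.544 to 0.784. Neurons carry granins as well, and markers of Schwann cells and neurons summed to 6.66, 110 and 0.897 CPM in the knockouts. Of the 3 knockouts all 8 were highest in knockout 2, as were 77.4% of the genes with any count. Uchl1 and Prph, of nerve cells, had 56.6 and 25.8 CPM in knockout 2 and no count in knockout 3. In the controls the same list had 1 and 0 counts. The part of nerve tissue in the granin levels was not tested.

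Between knockout and control, none of the islet genes passed the edgeR quasi-likelihood test at an adjusted p of 0.05 over all 8291 tested genes, in which 0.193% were called higher in the knockout and 1.6% lower. At an unadjusted p under 0.05, 2 of them (Ttr and Sst) and 1072 of all tested genes passed. Gcg was not tested, because its 10 counts in knockout 1 put it exactly on the low-count filter, and 9 of the 10 genes were. Ins2 averaged 294 ± 311 CPM over the controls (SD, n = 2) against 177 ± 151 CPM over the knockouts (SD, n = 3). Its log2 fold change was -0.73 ± 1.04 (SE; adjusted p = 0.689, edgeR). Ins1 had -1.05 ± 1.28 (SE; adjusted p = 0.645, edgeR) and Chgb 0.47 ± 1.75 (SE; adjusted p = 0.894, edgeR). Neither insulin differed beyond the spread between libraries. Without control 2 the log2 fold changes of Ins1 and Ins2 turned to 0.68 and 1.26, still without a call (adjusted p = 0.807 for both, edgeR), and without control 1 that of Chgb turned to -0.50.

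The other 7 genes had no control count, so their fitted fold changes are no measure of size. The knockout means of Ttr and Sst were 76.2 ± 44.2 and 64.1 ± 49 CPM (SD, n = 3). They were 3.55 and 2.98 times the detection limit of 3 counts over both controls. Without knockout 2 these ratios were 2.46 and 1.93. The lower limits of the exact 95% interval of the pooled ratio of knockout to control were smaller, 2.95 and 2.45, and cover counting error only. The means of Iapp, Gcg, Ppy and Chga were 1.63, 1.61, 1.71 and 1.62 times the same detection limit. Their lower limits of the exact 95% interval of the pooled ratio were 1.39, 1.38, 1.41 and 1.37. Without knockout 2 their means of 4.65, 1.88, 20.6 and 9.92 CPM lay under the detection limit of the controls. The Pyy mean of 16.6 ± 17 CPM lay under it with all 3 knockouts. Ttr and Sst had the smallest adjusted p-values of the group, 0.216 and 0.267 (edgeR). Both passed with TMM factors without Rn45s and Lars2 (adjusted p = 0.0446 and 0.0472, edgeR). There 147 of all 8291 tested genes were called higher, and the median log2 fold change of all genes moved from 0.22 to 1.93. With DESeq2 Ttr, Sst and Ppy passed (adjusted p = 0.00609, 0.0119 and 0.0282). DESeq2 called 610 of all 8291 tested genes higher, with a median log2 fold change of 1.42 over all genes. In the other fits no islet gene that was tested passed. The fits without knockouts 1, 2 and 3 tested only 6, 5 and 8 of the 10 genes, Iapp and Gcg in none of them. A p above the threshold at this depth does not show that levels were alike.

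All 3 knockouts stood above both controls for 7 of the 10 genes (Iapp, Gcg, Ttr, Sst, Ppy, Pyy and Chga), but so did 30.3% of the 16968 genes with any count and 35.6% of the tested genes. The same 7 had no count in either control, as had 57.3% of the genes with any count and, among tested genes, 6 of the 9 islet genes and 33.5% of all. Of the 2408 tested genes whose knockout mean fell between the lowest and the highest of the islet genes, 16.6 to 177 CPM, 24.5% had no control count. At the knockout mean, both controls together would hold 10.6 counts of Ttr, 8.94 of Sst and 5.12 of Ppy, and 4.89, 4.84 and 4.87 of Iapp, Gcg and Chga. The high insulin value of control 2 also had company, since 10.8% of those 2408 genes stood there at least as far above their knockout mean as Ins2, which was 2.9 times its own.

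The make-up of the islet RNA differed between libraries. Summed over the 10 genes, the level was 104 and 708 CPM in the controls against 219, 1119 and 289 CPM in the knockouts. The ranges of the groups overlapped in part, with control 1 the lowest library and knockout 2 the highest. The insulins made up all 7 islet counts of control 1 and 96.1% of the 51 counts of control 2 (exact 95% interval 86.5% to 99.5%). In knockouts 1, 2 and 3 they made up 19.6%, 39.8% and 63.9% of 690, 3995 and 967 counts, with intervals of 16.7% to 22.7%, 38.3% to 41.4% and 60.8% to 66.9%. Insulin thus had the larger share in both controls, and the lower bound of control 2 lay above the interval of each knockout. The interval of control 1, with a lower bound of 59%, reached that of knockout 3. These intervals cover counting error only, and reads that are copies of 1 molecule would widen them.

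The other 8 genes gave 0 and 2 counts in the controls beside 7 and 49 insulin counts. At the mix of knockout 3, the one richest in insulin, 49 insulin counts would come with 27.7 counts of the other genes, and at the mixes of knockouts 1 and 2 with 201 and 74. In control 1 the mix of knockout 3 would give 3.95. Per Ins2 count, a single gene without a count in control 2 could reach 0.0811 at 3 counts. Ttr lay above that limit in all 3 knockouts, with 0.974, 0.366 and 0.444 counts per Ins2 count. Sst lay above it in knockouts 1 and 2 (1.96 and 0.325) and not in knockout 3 (0.0753), and Iapp likewise in knockouts 1 and 2 (0.158 and 0.285) and not in knockout 3 (0.0226). Amylin and insulin come from the same cell type, and their ratio in knockout 2 was over 10 times that in knockout 3.

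**Figure D2:**
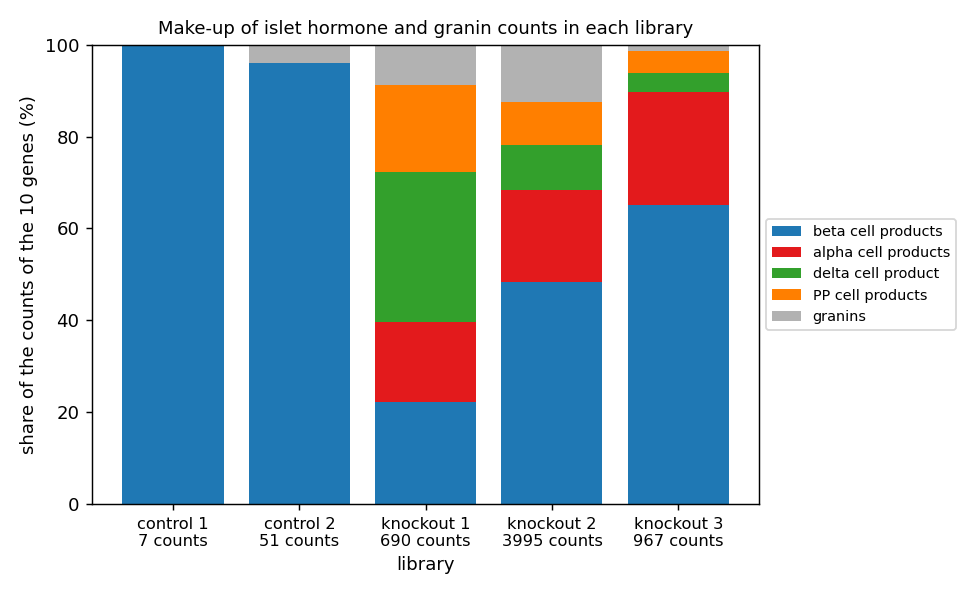
Share of the counts of the 10 genes that came from beta (Ins1, Ins2, Iapp), alpha (Gcg, Ttr), delta (Sst) and PP cell products (Ppy, Pyy) and from granins (Chga, Chgb), in percent, for each library with its total of islet counts. Beta cell products take 100% and 96.1% in the controls, and 22.2%, 48.4% and 65.1% in knockouts 1, 2 and 3.

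Each knockout library had its own mix. In knockout 1 Sst was the largest product, with 32.5% of the islet counts (exact 95% interval 29% to 36.1%), ahead of the beta cell products with 22.2% and the PP cell products with 19.1%. In knockout 2 the beta cell products had 48.4%, the alpha cell products 19.9%, the granins 12.5%, Sst 9.76% and the PP cell products 9.36%. In knockout 3 the beta cell products had 65.1% and the alpha cell products 24.6%, nearly all of the latter being Ttr, while Sst had 4.14%, the PP cell products 4.65% and the granins 1.45%. The share of Sst thus spanned 4.14% to 32.5% among libraries of 1 genotype, with intervals that did not meet. In the controls a product without a count could still hold 42.9% of the islet counts of control 1 and 5.88% of those of control 2.

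**Figure D3:**
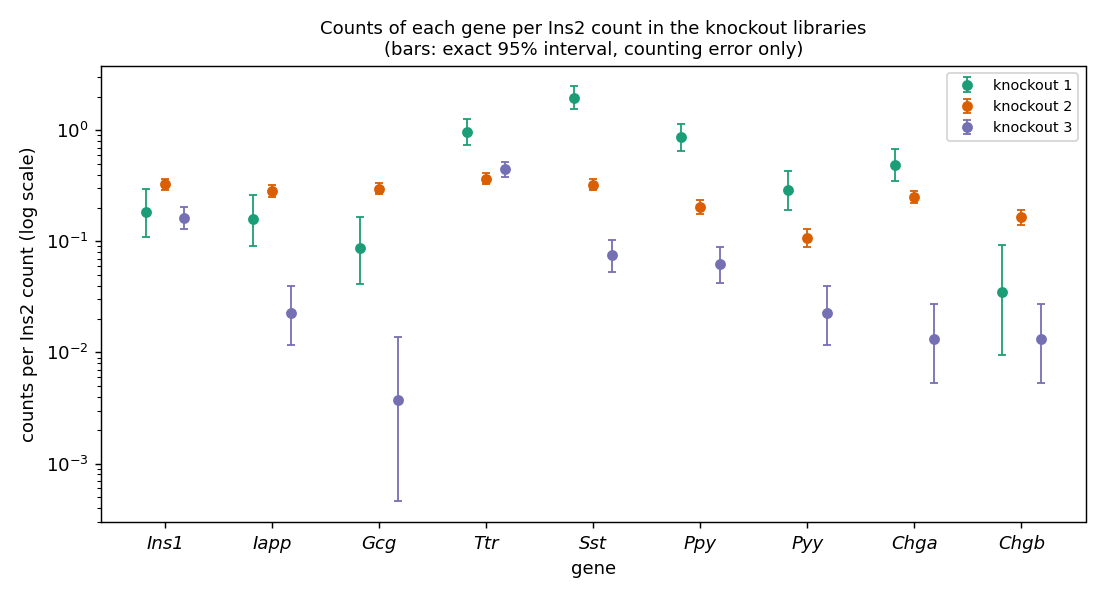
Counts of each islet gene per Ins2 count in the 3 knockout libraries, on a log axis, with exact 95% intervals for counting error. Knockout 1 has more Sst than Ins2 counts (1.96), and knockout 3 lies lowest for every gene except Ttr, where knockout 2 is lowest (0.366).

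Levels were also scaled by coding length to order the genes. Counts may come from untranslated parts of the transcripts too, whose length was not taken into account. The order therefore holds for this scale only. Per kilobase of coding sequence, Ins2 was first in 4 of the 5 libraries, at 224 and 1557 CPM in the controls against 1018 and 481 CPM in knockouts 2 and 3. In knockout 1 Sst was first at 204 CPM, followed by Ins2 at 109 and Ppy at 105 CPM. In knockout 2 Iapp (343), Ins1 (339) and Sst (314 CPM per kilobase) followed Ins2 closely together and on this scale did not differ beyond counting error. In knockout 3 Ttr (160) was second and Ins1 (80.3) the next. Chgb was last in each knockout, at 0.624, 27.3 and 1.03 CPM per kilobase, and Chga, at 12.8, 61.1 and 1.51, was above it.

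Knockout 2 was the highest knockout library for each of the 10 genes. This was the rule for other genes too, since knockout 2 was highest for 90.1% of the tested genes, for 88% of those in the abundance range of the islet genes and for 77.4% of the genes with any count. It also had the smallest enzyme share, given above. Against the mean of knockouts 1 and 3, knockout 2 stood at 2.33 times for Ttr, 2.63 for Sst, 3.34 for Ppy, 3.45 for Ins2, 5.11 for Pyy, 6.73 for Ins1, 8.56 for Chga, 20.6 for Iapp, 33 for Chgb and 53.3 for Gcg, beside a median of 2.57 over all tested genes. Ttr and Sst were thus close to the typical gene and Gcg, Chgb and Iapp far above it. Scaled instead to the counts outside the enzyme list, as a CPM of that remainder and a choice made after seeing the data, knockout 2 was highest for 7 of the 10 genes and for 56% of the tested genes. On that scale Ins2 was highest in knockout 3 (1294, against 178 in knockout 1 and 1062 in knockout 2), Ttr was highest in knockout 3 (575) and Sst in knockout 1 (350, against 345 in knockout 2). Gcg kept a ratio of 30.9, Chgb of 15 and Iapp of 10.6.

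Other genes of the endocrine secretory pathway were sparse, and among the knockouts most were highest in knockout 2. Of the 5 further granins and granule chaperones, none had a control count, 1 was tested, with an unadjusted p above 0.05, and it was not called. Pcsk1n, proSAAS, an inhibitor of prohormone convertase, had 8.56, 61.9 and 1.79 CPM in the knockouts. Scg2, secretogranin II, had 1.27 and 24.1 CPM in knockouts 1 and 2 and no count in knockout 3, and Scg3 and Scg5, of the same family and of granule chaperones, were at 0 in knockout 3 as well. Of the 5 prohormone processing enzymes 4 were tested and 1 was called, Pam, the peptide amidating enzyme, lower in the knockout. Pam had 44.4 and 403 CPM in the controls against 10.8, 15.1 and 4.78 CPM in the knockouts (log2 fold change -4.44 ± 1.26, SE, adjusted p = 0.0321, edgeR). The call was lost without control 2 (-2.11, adjusted p = 0.807, edgeR) and without any 1 of the knockouts (-4.48, -4.84 and -4.11, adjusted p = 0.866, 0.0692 and 0.0895 without knockouts 1, 2 and 3, edgeR), and kept without control 1 (adjusted p = 0.00054, edgeR). It was also lost with TMM and RLE factors, limma-voom and the replicate block (adjusted p from 0.0636 to 0.962). Pcsk2, the convertase of glucagon and insulin, had no control count and 3.8, 22.4 and 0 CPM, while Pcsk1 had 3.49, 2.24 and 4.78 CPM and so did not share the excess of knockout 2. Cpe, carboxypeptidase E, which trims prohormones, had 222 and 27.8 CPM in the controls against 15.5, 56.9 and 5.08 CPM in the knockouts. Of the 14 genes of granule membrane and exocytosis 5 were tested and none was called (edgeR, 1 at an unadjusted p under 0.05, and none by DESeq2). Among the knockouts all 14 were highest in knockout 2, as were 77.4% of the genes with any count. Vamp2, a vesicle SNARE, for example, had 12.4, 30.5 and 9.57 CPM in knockouts 1, 2 and 3. Against the controls this did not hold: the list summed to 118 and 83.3 CPM there and to 23.8, 113 and 23.9 CPM in the knockouts, and Cplx2, a regulator of exocytosis, had 74.1 CPM in control 1 and 15.7 CPM in knockout 2.

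Most factors and surface genes that define endocrine cells had few counts or none. Of 12 islet transcription factors 1 was tested, Foxa2, which is not limited to islets, and none was called. Neurog3 and Pax4 had no count anywhere, Neurod1 and Pax6 had 3 and 4 counts in knockout 2 and none in the other knockouts, and Neurod1 had 1 count in control 2. Nkx2-2 had 2, 8 and 4 counts in the knockouts, whereas Mlxipl had 8, 44 and 0 and Foxa2 had 37, 67 and 9. For the whole list the controls held 59.2 and 13.9 CPM (4 and 1 counts), against 15.2, 39.2 and 4.78 CPM in the knockouts. Of 18 further beta cell genes 1 was tested, Ero1lb, an oxidase for disulfide bonds in the endoplasmic reticulum, at 14.8 and 181 CPM in the controls against 58.6, 62.5 and 86.4 CPM in the knockouts. Mafa and Glp1r had no count in any library, and Slc2a2, the glucose transporter of beta cells, had 2, 21 and 4 counts in the knockouts. Higher in knockout 2 were Npy, with 9, 66 and 0 counts in knockouts 1, 2 and 3, and Trpm5, with 4, 28 and 0. Papss2 had 7, 19 and 2 counts. Of 9 alpha cell genes, Irx1, Fap and Dpp10 had no count anywhere, and the only tested one, the amino acid transporter Slc38a5, was highest in control 2 (278 CPM) and had 18.7, 12.3 and 43.3 CPM in the knockouts. Of 5 delta cell genes 1 was tested, Hhex, a delta cell transcription factor, at 5.07, 19.3 and 1.79 CPM in the knockouts and 0 in both controls, and Ghrl, the hormone of epsilon cells, had 0 and 1 control counts and 6.34, 8.97 and 3.59 CPM in the knockouts. None of these lists held a gene called by edgeR, DESeq2 or limma-voom, or, in the fit described here, one with an unadjusted p under 0.05 by edgeR.

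**Figure D4:**
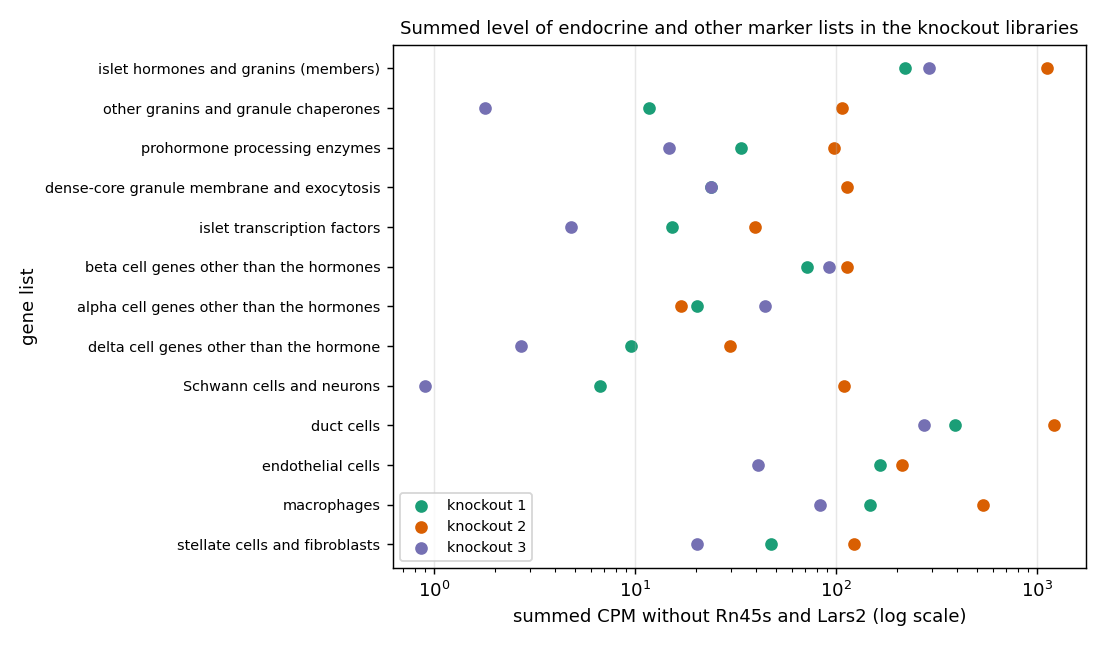
Summed CPM of the islet hormones and granins, of 7 further endocrine lists and of markers of 5 other cell types in the 3 knockout libraries, on a log axis. Knockout 2 is the highest of the 3 for each list except the further alpha cell genes, where knockout 3 leads, and knockouts 1 and 3 coincide for granule membrane and exocytosis.

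Among genes whose mean over the libraries reached 20 CPM, the profiles most like those of 2 hormones were sought over the 5 libraries, by the Euclidean distance between centred log2(CPM + 10) values among 3140 candidates. For Gcg the nearest were Lcn14, Sfn, Plaur, Penk and Golm1, at distances of 0.93 to 1.26 against a median of 3.56. Penk, the precursor of enkephalins, had 23.8, 136 and 1.79 CPM in the knockouts, and Sfn, an epithelial 14-3-3 protein, 22.2, 120 and 2.39 CPM. None of the 5 had a control count. For Ins2 the nearest were Fcgbp, Dpysl2, Il17re, Golga2 and Ulk1, at distances of 1.48 to 1.60, and each of these had counts in control 2 and none in control 1.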

How the data were processed

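RNA of acinar cell preparations was measured by poly(A) RNA-seq in 2 control and 3 knockout libraries. The deposited files hold raw read counts per gene symbol, which the authors did not normalize. Build mm9, HTSeq 0.9.1, TopHat2 2.1.1, Cuffdiff 2.2.1.5 and also Cuffnorm 2.2.1.2 appear in the submitters' processing notes without their roles. For annotation and strand the sources used here give no setting. Transcript sequences and coding lengths came from GENCODE M21 and promoters from RefSeq, both of a later build, so only promoter coordinates are printed.

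Counts without Rn45s and Lars2 were scaled to their total (CPM) and tested with edgeR 4.0.16 in R 4.3.3 (glmQLFit with robust estimation, glmQLFTest, two-sided, group as the only term, library sizes from those totals without further factors, filterByExpr with a minimum count of 10). Calls took a Benjamini-Hochberg adjusted p under 0.05. TMM was not the main scaling, because it uses genes counted in both libraries of a pair and left the median gene far from 0. The SE of a fold change was derived from the quasi-likelihood F. Intervals are exact 95% Poisson, binomial or conditional intervals from SciPy 1.17.1 and cover counting error only. The fit was tested on simulated data, where it recovered the size of planted changes but called few of them. No 2 libraries held identical values.

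Genes named are the 10 members, up to 4 of the most abundant and any called member of each list, and the 5 nearest profiles of Ins2 and Gcg. Not all of these are printed, and Neurog3, Pax4, Pax6, Neurod1, Mafa, Glp1r, Slc2a2, Irx1, Fap, Dpp10, Apoh, Fgb, Sct, Gast and further markers were named after their values were seen. The members and the 17 lists were chosen with earlier results of these data known. The acinar list, used for shares and scaling, held 6 genes called higher and 3 called lower of 37 tested. Alternatives were TMM, RLE and upper quartile factors, totals without the enzyme list, other filters, DESeq2 1.42.0, limma-voom (limma 3.58.1), the replicate number as a block, and leaving out each library. The scaling of single libraries to counts outside the enzyme list and the ratios to the detection limit without knockout 2 were added after seeing the data.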

Additional observations from a re-analysis of the deposited data

How the results depend on the processing

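No tested islet gene was called in the main fit, which tested 9, or in 13 of 15 alternatives, including those that left out a library (only 6, 5 and 8 were tested without knockouts 1, 2 and 3); TMM factors without Rn45s and Lars2 called 2 higher and DESeq2 3. None was called lower in any fit. Over all genes, 16 were called higher and 133 lower, with 1072 at an unadjusted p under 0.05. Higher and lower calls were 147 and 71 with TMM without Rn45s and Lars2, 5 and 27 with TMM on all counts, 610 and 301 with DESeq2, and 0 and 43 with limma-voom (773 at an unadjusted p under 0.05). RLE called 81 lower, upper quartile factors 354, no low-count filter 898 and a filter of 1 CPM in 2 libraries 388. Leaving out 1 library gave 0 to 19 higher and 4 to 378 lower; without knockout 1 the counts were 0 (161 at an unadjusted p under 0.05) and 4. The replicate block called 4 higher, 5 lower and no islet gene. The labels give replicate numbers but do not say that same-numbered libraries belong together. Deviations of same-numbered libraries from their group means correlated at -0.0075 and 0.0127. With 2 shallow controls, whose deviations mirror each other, this cannot show whether the libraries were paired. The signs of Ins1, Ins2 and Chgb turned with the setting. Ins1 had log2 fold changes of 0.55 (TMM), 0.51 (TMM on all counts), 0.053 (RLE) and 0.0527 (DESeq2), and Ins2 of 1.17, 1.13, 0.68 and 0.68. Chgb had -0.0726 with upper quartile factors and -1.50 with limma-voom. With a library left out, Ins1 ranged from -2.59 to 0.68, Ins2 from -1.59 to 1.26 and Chgb from -0.50 to 8.64. The log2 ratio of the summed level of the 10 genes was 0.42, became 3.13 on totals with Rn45s and Lars2, and ranged from -0.68 without knockout 2 to 2.39 without control 2. Gcg, not tested in the main fit, had adjusted p-values of 0.473 without a filter and 0.416 with 1 CPM in 2 libraries (edgeR). Pam, called lower in the main fit, kept its direction in all 15 alternatives and its call in 6. The cause of these changes was not tested.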

Other observations

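Markers of further cell types of the pancreas were counted in the same libraries. Markers of endothelial cells summed to 166, 212 and 41 CPM in knockouts 1, 2 and 3, those of macrophages to 147, 537 and 83.1 CPM, those of stellate cells and fibroblasts to 47.2, 123 and 20.3 CPM, and those of duct cells to 391, 1209 and 274 CPM. In controls 1 and 2 these lists summed to 0 and 97.2, 222 and 69.4, 14.8 and 306, and 770 and 653 CPM, so that control 2 was above every knockout for stellate cells and fibroblasts. Knockout 3 was the lowest and knockout 2 the highest knockout library for each of these 4 lists, and none of their 6, 5, 6 and 8 tested members was called between the groups (edgeR, with 1, 0, 2 and 0 at an unadjusted p under 0.05). DESeq2 called Pecam1, Plvap, Acta2 and Krt19 higher in the knockout, edgeR with TMM factors without Rn45s and Lars2 called Plvap higher, and edgeR called Rgs5 lower with the other low-count filters and without control 1, and Col1a1 lower without control 1. Plvap, of fenestrated endothelium, had no control count and 65, 83.8 and 15.5 CPM, and Pecam1, an endothelial adhesion molecule, 39.6, 48.5 and 8.67 CPM. Cd74, the invariant chain of antigen-presenting cells, had 163 and 0 CPM in the controls against 81.4, 282 and 61.6 CPM in the knockouts. Dcn, decorin of fibroblasts, had no control count and 7.29, 40.6 and 0.598 CPM, whereas Col1a1, a fibrillar collagen, had 0 and 167 CPM in the controls against 0.317, 6.44 and 5.08 CPM. Krt19, a duct keratin, had 88.9 and 13.9 CPM in the controls against 113, 491 and 33.5 CPM in the knockouts, whereas Spp1, osteopontin, had 444 and 389 CPM against 88.4, 324 and 102 CPM. Unlike these list sums, the sum of Ins1 and Ins2 was higher in knockout 3 (185 CPM) than in knockout 1 (42.8 CPM). So were some single members of the lists, among them Spp1 and Col1a1, so this order was not particular to the insulins.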
